A study of Mus musculus with 6 samples.

Results

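The granule genes Mpo, Elane, Prtn3, Ctsg, Ms4a3 and Prss57, which neutrophil precursors switch on at the promyelocyte stage, were followed in RNA of sorted CD45+ cells from spleen and of mesenteric lymph nodes (mLN), which drain the gut. The genes were chosen by symbol, and all 6 were found among the 55487 gene identifiers of each table through the GENCODE M21 annotation. CD45, the product of Ptprc, is carried by nearly all leukocytes, so each library is RNA of a mixture of blood cell types. Spleen cells made up 3 libraries and mLN cells the other 3. In both tissues the mice were wild type and C57BL6/J, the cells were taken fresh, and polyA RNA was sequenced with a strand-keeping kit. No age, sex or other treatment is stated in the sources used here. Nor do they say whether each replicate was another animal, and the p-values below therefore reflect the spread among these libraries alone, which may be technical.

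Neutrophils form in stages, and each stage fills its own kind of granule. Azurophil granules, also called primary granules, are filled first, by promyelocytes, with myeloperoxidase and a family of serine proteases. Specific granules and then gelatinase granules follow, by which time transcription of the azurophil genes has been shut down although the proteins remain stored. Transcripts of these genes therefore mark precursors rather than circulating neutrophils. In mice the spleen keeps some blood formation in adult life, while lymph nodes are not known as a site of it.

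RefSeq promoter windows, from 250 bases before to 50 bases after the transcript start (GRCm38.p6), matched 5 of the members by symbol. They were searched on both strands for letters bound by factors of granulocyte precursors: GAGGAA for PU.1, AACNG for MYB, TGTGGT for RUNX and TTNNGNAA for C/EBP. The 250 bases before the start are printed 5′ to 3′ on the gene's strand for the peroxidase gene and the 3 protease genes, because these carry most of the azurophil transcripts measured. Capitals mark letters that match any of the searched motifs.
Mpo: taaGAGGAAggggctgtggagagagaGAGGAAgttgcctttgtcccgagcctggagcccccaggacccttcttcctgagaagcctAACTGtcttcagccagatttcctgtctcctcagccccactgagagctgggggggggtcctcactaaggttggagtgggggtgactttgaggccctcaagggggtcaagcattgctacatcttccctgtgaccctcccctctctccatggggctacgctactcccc
Elane: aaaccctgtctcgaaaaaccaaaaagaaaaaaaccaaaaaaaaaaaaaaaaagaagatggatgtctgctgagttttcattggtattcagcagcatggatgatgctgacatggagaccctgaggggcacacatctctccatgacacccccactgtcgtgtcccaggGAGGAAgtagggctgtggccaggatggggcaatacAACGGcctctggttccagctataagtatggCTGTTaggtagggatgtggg
Prtn3: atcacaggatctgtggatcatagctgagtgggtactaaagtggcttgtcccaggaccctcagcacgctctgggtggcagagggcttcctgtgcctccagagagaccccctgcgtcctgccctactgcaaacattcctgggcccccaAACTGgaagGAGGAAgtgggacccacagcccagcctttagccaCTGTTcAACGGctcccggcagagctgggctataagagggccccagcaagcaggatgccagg
Ctsg: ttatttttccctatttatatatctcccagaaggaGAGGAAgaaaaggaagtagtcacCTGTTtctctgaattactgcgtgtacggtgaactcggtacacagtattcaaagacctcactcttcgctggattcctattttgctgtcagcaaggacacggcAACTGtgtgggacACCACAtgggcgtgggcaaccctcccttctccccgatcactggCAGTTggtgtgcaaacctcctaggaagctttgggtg
The windows lie at chr11:87793534-87793783 (+) for Mpo, chr10:79886062-79886311 (+) for Elane, chr10:79879417-79879666 (+) for Prtn3 and chr14:56102575-56102824 (-) for Ctsg. GAGGAA was present in the whole windows of all 5 members, and in 28.3% of the 32817 windows of the table. In Ms4a3, whose window is not printed, the match began 36 bases after the start. AACNG was present in 4 of the 5, all but Ms4a3, against 80.3% of all windows. TGTGGT was found in Ctsg alone (16.8% of all windows) and TTNNGNAA in Ms4a3 alone (40.7%). Elane and Prtn3 also shared longer runs around 2 of these matches, a comparison made after the windows had been seen. Both held GGAGGAAGT, beginning 86 bases before the start in Elane and 96 in Prtn3, and both held CAACGGC, beginning 51 and 56 bases before it. GGAGGAAGT was present in 1.24% of all windows, CAACGGC in 1.68%, and both together in 7 windows (0.0213%). Those 7 include these 2 windows by construction, since the runs were chosen as the longest shared by Elane and Prtn3 around these matches. These matches describe letters only, and no binding was measured.

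**Figure D1:**
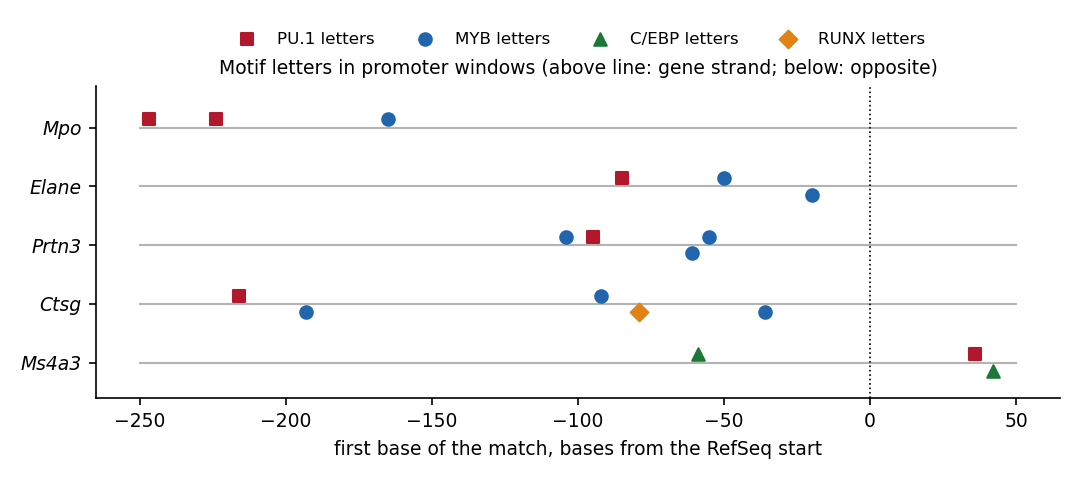
Position of motif matches (first base, in bases from the RefSeq start) in the promoter windows of 5 azurophil granule genes, with gene-strand matches above each line and opposite-strand matches below it. PU.1 letters stand in every window, at -85 in Elane and -95 in Prtn3, while RUNX letters stand in Ctsg alone.

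The libraries held 12584244 to 18119551 expected counts. Correlations of log2 CPM over genes, which are not replicates, were 0.984 to 0.989 for libraries of the same tissue and 0.934 to 0.937 between tissues, and no library stood apart from its tissue. CPM is the count scaled to 1000000 counts of a library after TMM adjustment. Ptprc, the gene of the sorted antigen, averaged 2191 ± 39 CPM over the spleen libraries and 2675 ± 35 CPM over the mLN libraries (SD, n = 3 each). Of 14427 genes tested by edgeR's quasi-likelihood test, 23.8% were called higher in spleen and 21.8% lower at an adjusted p under 0.05. Genes called higher in spleen by at least 1 on the log2 scale made up 8.6%. These shares are the background for each count of calls below.

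All 6 azurophil granule genes were found in every spleen library and were absent or nearly absent in mLN. Together they took 257, 251 and 263 CPM in the spleen libraries, against 0.667, 0.366 and 0.162 CPM in the mLN libraries. In counts these were 4476, 4118 and 4394 reads in spleen, and 10, 6.5 and 2 reads in mLN. For every member each spleen library lay above each mLN library, as the plot of CPM by library shows. Of all genes tested, 27.4% had the same separation. All 6 were called higher in spleen, beside a background of 23.8% of genes. All passed the filter on low counts through the spleen libraries alone, so they had to differ, and their number called is no support by itself. In bulk RNA, fewer cells of a type and less RNA per cell cannot be told apart, and which cells carried the transcripts was not measured.

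**Figure D2:**
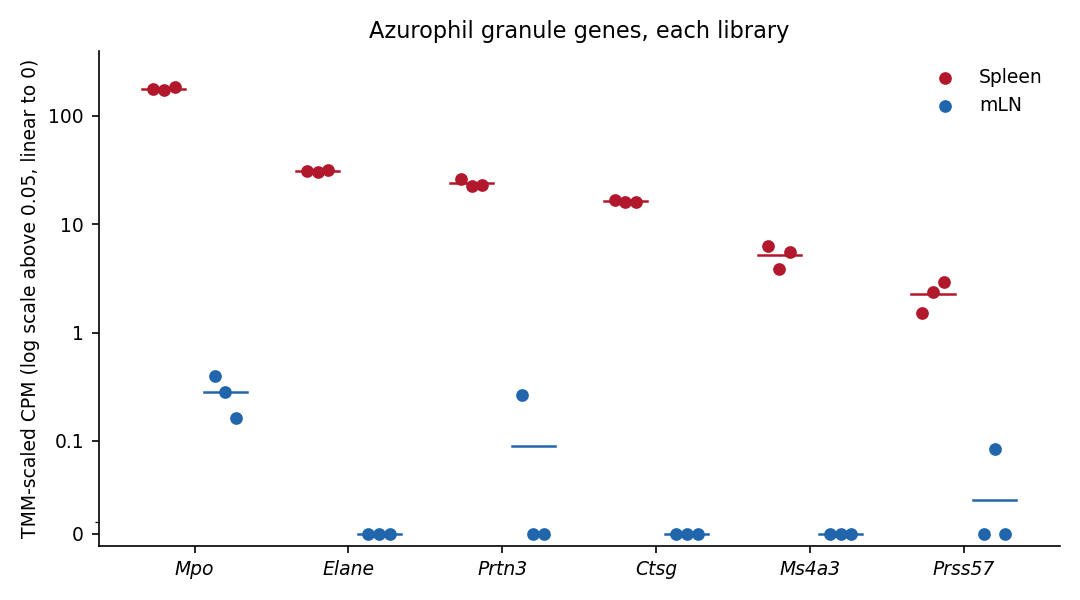
TMM-scaled CPM of each azurophil granule gene in each library, spleen left of mLN, on an axis that is logarithmic above 0.05 and linear down to 0; short lines are the means of 3 libraries. Every spleen point of a gene lies above its mLN points, as in 27.4% of all genes tested. Elane, Ctsg and Ms4a3 lie at 0 in all 3 mLN libraries.

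Mpo encodes myeloperoxidase, the haem enzyme that makes hypochlorous acid from hydrogen peroxide and chloride. It had the most reads of the members, at 176, 175 and 184 CPM in the spleen libraries and 0.4, 0.281 and 0.162 CPM in the mLN libraries. The mLN values rest on 6, 5 and 2 reads, so Mpo was the single member with reads in all 3 mLN libraries. The log2 fold change of spleen over mLN was 9.23 (edgeR adjusted p = 4.17e-42). As a ratio of summed counts per library size, Mpo was 619-fold higher in spleen, with a 95% counting interval of 362 to 1162. The gene (chromosome 11, 87793581 to 87804413, plus strand, GRCm38) overlaps Gm11505, an antisense gene, over 5361 bases. The authors' expected counts gave Gm11505 11.25, 3.03 and 6.1 reads in the spleen libraries, and the counts of both genes added up to whole numbers within 0.02. Adding them back left the Mpo fold change at 9.24.

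Elane encodes neutrophil elastase, a serine protease that cuts elastin and bacterial outer membrane proteins. It was at 30.9, 30.4 and 31.7 CPM in the spleen libraries, from 538, 499 and 530 reads. No read was assigned to it in any mLN library, where a count of 0 allows up to 3 reads, or 0.2, 0.169 and 0.243 CPM. With the 3 mLN libraries pooled, a count of 0 likewise allows up to 3 reads in all. Set against this pooled floor, and not the floors of single libraries, Elane was at least 466-fold higher in spleen (edgeR adjusted p = 2.77e-27).

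Prtn3 encodes proteinase 3, a close relative of elastase and, in humans, a target of autoantibodies in vasculitis. It was at 26, 22.6 and 22.9 CPM in the spleen libraries and 0.267, 0 and 0 CPM in the mLN libraries. All 4 of its mLN reads came from replicate 1, so a single library set its mLN level. Prtn3 was 269-fold higher in spleen (95% counting interval 105 to 990, edgeR adjusted p = 9.08e-24). Without mLN replicate 1 it was at least 240-fold higher, and without mLN replicate 2 the ratio was 163.

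Ctsg encodes cathepsin G, the chymotrypsin-like member of the granule proteases. It was at 16.8, 16.2 and 16 CPM in the spleen libraries, from 293, 266 and 267 reads, and had no reads in mLN. It was at least 246-fold higher in spleen (edgeR adjusted p = 8.70e-23). Cathepsin G is also made by some mast cells, whose genes are given further on.

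Ms4a3 encodes a 4-span membrane protein used in mice to trace descendants of granulocyte-monocyte progenitors. It was at 6.27, 3.84 and 5.56 CPM in the spleen libraries, from 109, 63 and 93 reads, and had no reads in mLN. It was at least 78.9-fold higher in spleen (edgeR adjusted p = 5.50e-14). Its spleen libraries averaged 5.22 ± 1.25 CPM (SD, n = 3).

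Prss57 encodes neutrophil serine protease 4, which cuts after arginine. It had the fewest reads of the members, at 1.53, 2.39 and 2.96 CPM in the spleen libraries and 0, 0.0844 and 0 CPM in the mLN libraries. The mLN value is a split count of 1.5 in replicate 2. With counts rounded, Prss57 was 51.3-fold higher in spleen (95% counting interval 13.9 to 429, edgeR adjusted p = 3.14e-08), and without mLN replicate 2 it was at least 20.7-fold higher. This level is uncertain, because Prss57 (chromosome 10, 79781474 to 79790961, minus strand) overlaps Fstl3 on the plus strand over 1157 bases at their 3′ ends. The expected counts divided reads between them: 26.68, 39.15 and 49.5 went to Prss57 and 26.32, 19.85 and 10.5 to Fstl3 in the spleen libraries. In the mLN libraries Fstl3 took 22, 15.5 and 16. The pair summed to 53, 59 and 60 reads in spleen and 22, 17 and 16 in mLN, whole numbers within 0.02 each time. Tested as a sum, the pair was still higher in spleen, but with a log2 fold change of 1.46 (edgeR adjusted p = 0.000388) in place of the 5.48 fitted for Prss57 alone.

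**Figure D3:**
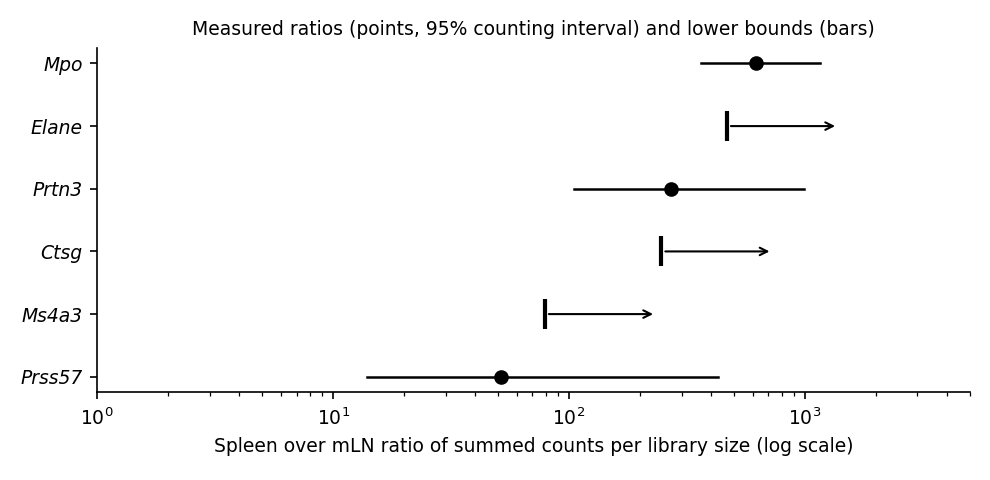
Ratio of spleen over mLN (log scale) for each azurophil granule gene, from summed counts per library size; points have 95% counting intervals, and bars with arrows are lower bounds where mLN had no reads. Ratios and bounds run from 51.3 for Prss57 to 619 for Mpo.

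The bounds depend on how many mLN reads were sampled. Leaving out mLN replicate 2, the deepest library, lowered them by construction to 282 for Elane, 149 for Ctsg and 47.8 for Ms4a3. A lower bound is thus no rank: Elane, Ctsg and Ms4a3 may differ from mLN by more than Mpo.

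Levels of different genes were compared per length, in the TPM values of the authors' tables. In spleen the order was Mpo (129 ± 3.30 TPM), Elane (60.3 ± 1.33), Prtn3 (52.2 ± 3.60), Ctsg (31.1 ± 0.939), Ms4a3 (10.1 ± 2.40) and Prss57 (2.79 ± 1.07; SD, n = 3). Each neighbouring pair was apart in all 3 libraries. The closest were Elane and Prtn3, whose lowest and highest values were 58.9 and 56.3 TPM and whose ratio of means was 1.15. Mpo stood 2.14-fold above Elane, Prtn3 1.68-fold above Ctsg, and Ctsg 3.08-fold above Ms4a3. The shares of Mpo, Elane, Prtn3 and Ctsg varied less among the spleen libraries than those of Ms4a3 and Prss57. Mpo made 43.9%, 45.5% and 46.2% of the summed TPM of the 6 genes, Elane 20.7%, 21.2% and 21.4%, and Ctsg 11%, 11.2% and 10.5%. Prtn3 made 19.3%, 17.9% and 17.6%, Ms4a3 4.22%, 2.72% and 3.62%, and Prss57 0.917%, 1.41% and 0.619%. The Prss57 TPM was the least stable, since its effective length was set at 843, 906 and 2475 bases, so that the library with the most Prss57 reads had the lowest Prss57 TPM (1.78). In mLN the summed TPM of the 6 genes was 0.93, 0.29 and 0.11, too few reads to give an order.

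Partners that process, pack or restrain the azurophil proteins had much smaller fold changes than the members. Of 10 such genes 9 passed the count filter, 7 were called higher and 1 lower in spleen, with a median log2 fold change of 0.32 (0.00 over all genes tested). The shares over all genes tested were 23.8% called higher and 21.8% lower. The largest was Slpi, a secreted inhibitor of elastase, at 94.6, 90.7 and 92.7 CPM in spleen and 16.8, 21.4 and 17.7 CPM in mLN (log2 fold change 2.30, edgeR adjusted p = 6.31e-27). Serpinb1a, an inhibitor of elastase, cathepsin G and proteinase 3 inside the cell, had a log2 fold change of 0.69, and Cd63, a granule membrane tetraspanin, 0.82. Ctsc, the dipeptidase that activates all 4 proteases, had 0.25, with 218 ± 7.48 CPM in spleen and 184 ± 5.90 CPM in mLN. Cst7, a cystatin that inhibits Ctsc, was called lower in spleen (28 ± 2.50 against 36.3 ± 1.42 CPM in mLN, log2 fold change -0.37, edgeR adjusted p = 0.000264). Cst7 and Ctsc are also used by cytotoxic lymphocytes, whose markers stood at 329 to 344 CPM in sum in spleen and 280 to 290 CPM in mLN, and whose part was not tested. Of 5 such markers 4 were called higher in spleen and 1, Nkg7, lower, beside the same shares over all genes. Lyz2, lysozyme of granulocytes and macrophages, had 0.52, and Srgn, the proteoglycan that holds proteases in granules, 0.32. Calr, a chaperone of myeloperoxidase, had 0.14, and its fellow chaperone gene Canx had 0.01 and was not called. Bpi, an azurophil antibacterial protein, had no reads in any library.

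Among 8 transcription factors of granulocyte-monocyte progenitors and promyelocytes, 5 were called higher in spleen, 2 lower and 1 neither way (median log2 fold change 0.66). The shares over all genes tested were 23.8% higher and 21.8% lower. Cebpe, which drives the step from promyelocyte to myelocyte, was alone in having no mLN reads, and it passed the count filter through spleen alone. It was at 4.89, 9.32 and 6.87 CPM in the spleen libraries and was at least 105-fold higher there (edgeR adjusted p = 1.27e-15). Spi1, which encodes PU.1, had a log2 fold change of 1.01 and Cebpa of 0.98. Irf8, which favours monocytes, dendritic cells and B cells, had 0.73, and Myb 0.58. Gfi1, which restrains monocyte genes in granulocyte precursors and is also used by lymphocytes, was lower in spleen. It was at 20.3, 19.7 and 19.9 CPM in spleen and 35.2, 32.9 and 33.4 CPM in mLN (log2 fold change -0.76, edgeR adjusted p = 1.34e-09). Cbfb had -0.19 and was called lower in spleen, while its partner Runx1, at -0.08, was not called with all libraries and was called (-0.13, edgeR adjusted p = 0.045) without mLN replicate 1. T-cell markers moved the same way as Gfi1: their summed level was 592 to 614 CPM in spleen and 1128 to 1165 CPM in mLN, all 5 were called lower in spleen, and none was at 0. B-cell markers moved the same way as Spi1 and Irf8, with 3602 to 3664 CPM in spleen and 2037 to 2057 CPM in mLN, all 4 called higher and none at 0. The shares over all genes given above stand beside these marker counts too. The part of T and B cells in these values was not tested.

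Of 10 genes of progenitors and early neutrophil precursors, all 10 were called higher in spleen (median log2 fold change 2.20). Over all genes tested the share was 23.8%, and which cells carried these transcripts was not measured. Genes of this list with few or no mLN reads passed the count filter through spleen alone, so this count is no support by itself. Kit, the stem cell factor receptor, was at 27, 28.9 and 24.1 CPM in spleen and 7.87, 6.52 and 5.02 CPM in mLN (2.03 on the log2 scale). Csf3r, the receptor for G-CSF, had 2.35, Flt3 0.98 and Plac8 0.63. Fcnb, a ficolin gene of promyelocytes and myelocytes singled out after its values were seen, had no mLN reads. It was at 8.91, 7.01 and 10.1 CPM in spleen, at least 131-fold higher (edgeR adjusted p = 1.00e-17).

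Genes of the later granules were also higher in spleen, and their summed TPM exceeded that of the azurophil genes. All 8 specific granule genes were called higher in spleen (median 8.41, or 6.86 with genes at 0 to 3 mLN reads set to their bound or ratio). The same median for the azurophil genes was 9.31, or 7.95 at bounds. All 10 gelatinase granule and mature neutrophil genes were called higher as well (median 5.38). Over all genes tested the share was 23.8%. Genes of both lists with few or no mLN reads passed the count filter through spleen alone, so these counts are no support by themselves. In summed TPM, spleen libraries held 1536 to 1582 for the specific granule list and 2395 to 2452 for the late list, against 277 to 292 for the azurophil genes. In mLN these sums were 74 to 80.3 TPM for the specific granule list and 9.69 to 13 for the late list. Chil3 and Hp, which macrophages and other cells also make, held most of the mLN sum of specific granule genes (61.1 to 70.1 CPM), at 44.3 ± 3.10 and 17.8 ± 2.06 CPM. The lactoferrin gene Ltf was 4978-fold higher in spleen (95% counting interval 1703 to 24140), an interval that lies above that of Mpo. Ngp had a ratio of 2046 (1038 to 4739) and Lcn2 of 363 (208 to 703). The alarmin genes S100a8 and S100a9 had ratios of 346 (221 to 575) and 331 (242 to 466), intervals that overlap that of Mpo. Mmp9 and Mmp8 had ratios of 25.3 (21 to 30.8) and 43.9 (28.5 to 71.2), below the interval of Mpo.

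**Figure D4:**
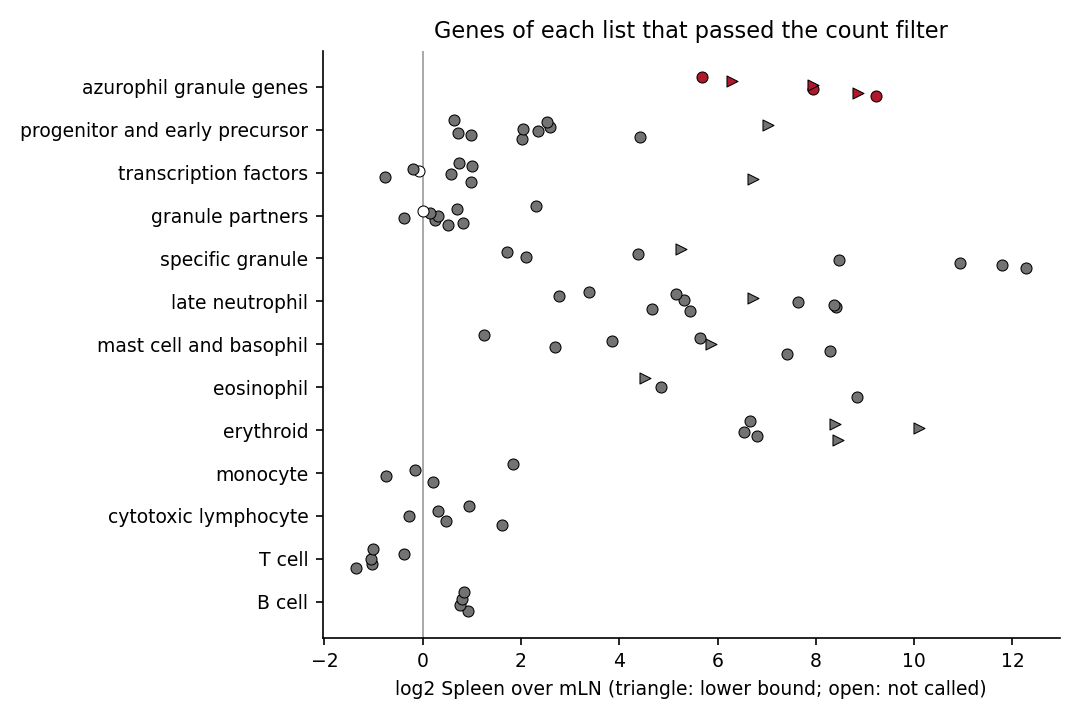
log2 ratio of spleen over mLN for the genes of each list that passed the count filter, fitted values except for genes with 0 to 3 mLN reads, which stand at their measured ratio or, as triangles, at their lower bound; open circles were not called. The azurophil genes (red) all lie above 5, granule partners within 3 of 0, and T-cell markers below 0.

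All tested markers of the erythroid, eosinophil and joint mast cell and basophil lists were called higher in spleen. Over all genes tested the share was 23.8%. Markers without mLN reads passed the count filter through spleen alone, so these counts are no support by themselves. The part of these cells in the azurophil values was not tested. The 6 erythroid markers summed to 840 to 862 CPM in spleen and 5.89 to 9.03 CPM in mLN. All 6 were called higher in spleen, and 3 of them had no mLN reads. Car1, a carbonic anhydrase of red cells, was at least 1091-fold higher. Klf1 had a ratio of 115 (95% counting interval 64 to 231), and Hbb-bs, a globin gene that shares reads with its close copy, of 101 (90.5 to 114). Mast cell and basophil markers summed to 88.8 to 90.5 CPM in spleen and 2.02 to 3.27 CPM in mLN, with all 7 tested of 9 called higher and Ms4a2 without mLN reads. The basophil protease genes Prss34 and Mcpt8 led this list, at 43.8 ± 2.37 and 20.3 ± 1.68 CPM in spleen and 0.131 ± 0.0618 and 0.111 ± 0.193 CPM in mLN. Gata2 had a ratio of 52.5 and Cpa3 of 6.43. Protease genes of connective tissue mast cells were looked at after their values were seen. Cma1 was at 2.82, 1.64 and 2.99 CPM in the spleen libraries and 1.40, 0.562 and 1.21 CPM in the mLN libraries. Its ratio was 2.45 (95% counting interval 1.73 to 3.51), against 184 for the basophil gene Mcpt8. Mcpt4 had 22 reads in spleen and 2 in mLN, and Tpsb2 had 16 in spleen and 5 in mLN, too few to be tested. The part of mast cells in the Ctsg values was not tested. The call of Cma1 (edgeR adjusted p = 0.0116) was lost without spleen replicate 1 (0.0644), spleen replicate 3 (0.0809) or mLN replicate 2 (0.0773) and with an effective-length offset (0.0546). Eosinophil markers summed to 28.4 to 32.3 CPM in spleen and 0.6 to 0.891 CPM in mLN, with all 3 tested of 4 called higher. Prg2, major basic protein, had a ratio of 29.2 and Siglecf had no mLN reads. The 4 monocyte markers split, 2 higher and 2 lower in spleen, at 412 to 438 CPM in spleen and 469 to 482 CPM in mLN, with none at 0. F13a1 had a log2 fold change of 1.83 and Csf1r of 0.21, while Ly6c2 had -0.74 and Ccr2 -0.15, whose call was lost without spleen replicate 3 or mLN replicate 2 and with an effective-length offset.

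Of the members, Prtn3, Elane and Prss57 lie in 1 stretch of chromosome 10. Prtn3 (79874476 to 79883174, plus strand) ends 3073 bases before Elane (79886247 to 79888215, plus strand), and Prss57 ends 83515 bases before Prtn3. Of the 21 protein-coding neighbours within 100 kb of any of them, 17 were tested. Of these 4 were called higher, near the background of 23.8%, 2 lower and 11 neither way, with fitted log2 fold changes from -1.45 to 1.56. Cfd, the adipsin gene next to Elane and a serine protease of the same cluster, had no reads in any library. Palm, the neighbour of Prss57 on the other side, had the largest log2 fold change, 1.56 (20 ± 2.09 CPM in spleen and 6.80 ± 0.875 in mLN, edgeR adjusted p = 7.88e-13). Arid3a, a B-lineage factor, had 0.92, Bsg 0.35 and R3hdm4 0.11, while the granzyme gene Gzmm had -1.45 and Polrmt -0.15. Plppr3, whose annotated extent overlaps that of Prtn3, had 0.00 and was not called.

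**Figure D5:**
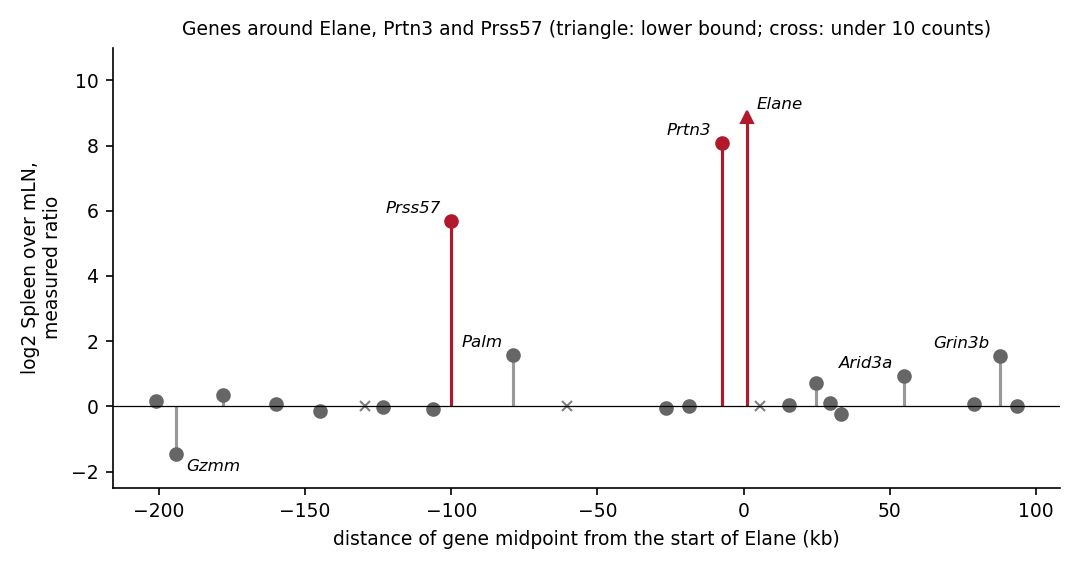
log2 of the measured ratio of spleen over mLN for protein-coding genes within 100 kb of Elane, Prtn3 or Prss57, by distance of the gene's midpoint from the start of Elane in kb; the triangle is a lower bound and crosses are genes with under 10 reads in all. The 3 members stand above 5, while every neighbour with at least 10 reads lies below 2.

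Near each of the other members at least 1 neighbour was also called higher, but few neighbours were tested. Over all genes tested, 23.8% were called higher and 21.8% lower. The neighbours called higher here had few or no mLN reads and passed the count filter through spleen alone. Their number called is therefore no support by itself. Within 100 kb of Mpo, 5 of 8 coding neighbours were tested, of which 1 was called higher, 1 lower and 3 neither way. Epx, the eosinophil peroxidase gene and a relative of Mpo, was at 10.1 ± 0.653 CPM in spleen with 1 mLN read, a ratio of 458 (95% counting interval 81.8 to 18123). Rnf43 was called lower, with a log2 fold change of -0.30, and Lpo, the lactoperoxidase gene beside Mpo, had 1 read in all. Olfr462 and Olfr463 had none. Ctsg (chromosome 14, 56099881 to 56102574, minus strand) lies in the cluster of mast cell proteases and granzymes. There 1 of 9 coding neighbours was tested, the basophil gene Mcpt8, with a ratio of 184 (78.4 to 567), and 4, namely Mcpt9, Gzmd, Gzmg and Gzmn, had no reads. Beside Ms4a3 (chromosome 19, 11629496 to 11640851, minus strand), 4 of 7 coding neighbours were tested, 2 called higher and 2 lower. Ms4a2, the beta chain of the IgE receptor, was at least 58.3-fold higher in spleen. The family members Ms4a6b and Ms4a6d went the other way, with log2 fold changes of -1.23 and -1.25. The egg gene Oosp1 had a log2 fold change of 3.40 on 86 spleen and 7 mLN reads, and Oosp3 had no reads.

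Of all genes tested, the profile over the 6 libraries nearest to the mean of the members was that of Hba-a1, a globin gene that shares reads with its copy (Euclidean distance 0.292 between centred log2 CPM). Gfi1b (0.409), Aldh1a1 (0.443), Itgb2l (0.444) and Apol11a (0.47) came next. The members themselves lay 0.536 (Ctsg) to 3.53 (Prss57) from their mean, farther than all 5. Gfi1b, Itgb2l and Apol11a had no mLN reads and were at least 200-fold, 180-fold and 230-fold higher in spleen, and Aldh1a1 had 1 mLN read. With 2 tissues the measure mostly ranks genes by the size of 1 difference.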

How the data were processed

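PolyA RNA of CD45+ cells was measured in 3 libraries of spleen and 3 of mLN, the tissue being that of the labels. The authors deposited 1 gene table per library with, per the file headers, an expected count (an estimate that need not be whole), a TPM value and an effective length. STAR, RSEM and build mm10 were used per the submitters' processing notes, without a role or version, and the strand setting was not given in the sources used here. Of 55487 identifiers, 55141 matched a GENCODE M21 symbol.

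Expected counts were rounded, filtered with filterByExpr by group and scaled by TMM, and tested with edgeR 4.0.16 (quasi-likelihood F-test, robust, with a term for tissue) in R 4.3.3, with Benjamini-Hochberg adjustment over 14427 genes. Fold changes are spleen over mLN. With no mLN reads, a fold is a lower bound against a floor of 3 counts over the mLN libraries; other ratios have exact 95% intervals from summed counts. Because counts were summed over the libraries of a tissue, these intervals and floors leave out the spread among libraries. The reads carry no molecular identifiers, so even the counting error may be larger than given. An exact permutation test of 3 against 3 cannot go below p = 0.1.

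The members and lists were chosen with earlier results of these data known. Members, granule partners and factors were all named; of other lists the 4 highest in spleen and any not called or lower there; of coding genes within 100 kb, those called or without reads; and the 5 nearest profiles. Of the erythroid list, 3 of those 4 are reported here. T- and B-cell markers are given only as sums and counts, only Nkg7 of the cytotoxic list is named, and Prg3 of the eosinophil list is left out. Named outside this rule were Hp, Fcnb, Plppr3, Lpo, the overlapping genes and the proteases of connective tissue mast cells. Alternatives were RLE scaling, other filters, DESeq2 1.42.0, a replicate block, an effective-length offset, a prior count of 2 and leaving out each library.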

Additional observations from a re-analysis of the deposited data

How the results depend on the processing

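All 236 values recomputed under the alternatives kept their direction and their side of the threshold, or for counts of calls stayed within 1.5 times: 80 of the members, 144 of the lists and the rest of the count over all genes. That last count was 6569 genes, and 4645 with the effective-length offset. The replicate number as a block gave 6455 calls and log2 fold changes of 9.23 for Mpo and 5.50 for Prss57, and it changed no call of a member. Deviations of same-numbered libraries correlated at 0.0267, 0.0275 and -0.0081, and those of differently numbered libraries at -0.0394 to 0.0123. All were small, and the numbers were not taken as pairs. Leaving out each library gave log2 fold changes from 9.02 to 9.53 for Mpo, 11.92 to 12.01 for Elane, 7.27 to 11.59 for Prtn3, 10.98 to 11.09 for Ctsg, 9.20 to 9.55 for Ms4a3 and 4.98 to 8.17 for Prss57. The high ends of Prtn3 and Prss57 came without mLN replicate 1 and mLN replicate 2, which held their mLN reads. Fitted values of genes without mLN reads depend on the prior count: with a prior count of 2, that of Elane was 7.96 in place of 11.95 and that of Ms4a3 5.41 in place of 9.38. Adding the overlapping gene, an alternative chosen after seeing the data, gave 1.46 for Prss57. Depth limits the mLN levels of all members, which rest on 0 to 13 reads.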
